A study of Mus musculus with 6 samples.

Results

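Transcripts of 10 acute phase proteins were examined in the livers of laboratory and wild house mice. The 10 genes were chosen by name as known acute phase proteins, from 47256 gene names listed once for every mouse. They were the short pentraxins Crp and Apcs, the serum amyloid A genes Saa1, Saa2, Saa3 and Saa4, haptoglobin (Hp), the orosomucoids Orm1 and Orm2, and lipocalin 2 (Lcn2). All 10 had a valid value in all 6 mice and passed the filter on low values.

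Acute phase proteins are plasma proteins that the liver makes in changed amounts during infection, injury or inflammation. Interleukin 6 acts on hepatocytes through its receptor, JAK kinases and the transcription factor STAT3, while interleukin 1 and tumour necrosis factor act through NF-kB, and C/EBP factors take part downstream of both. Positive members rise in such a response and negative members, albumin among them, fall. In the mouse, serum amyloid A is the major inducible member, whereas Apcs (serum amyloid P) takes the place that C-reactive protein holds in humans.

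Liver RNA was sequenced once from each of 3 laboratory mice and 3 wild mice, all separate animals. The laboratory mice were inbred C57BL/6 males obtained from a supplier and killed on arrival. The wild mice were outbred adults, live-trapped at a pair of sites and then housed under standard husbandry for some months before they were killed. Wild mice 1 and 2 came from Murrumbateman and wild mouse 3 from Yass. Females (wild mice 2 and 3) were present in the wild group only, beside a male (wild mouse 1). Effects of strain, sex, trapping site, housing and age cannot be told apart. A fit with sex as a covariate, given for some genes below, compares the laboratory mice with wild mouse 1 alone. Its differences and its calls therefore rest on 1 wild mouse. Any fit without wild mouse 1, such as the one below that also omits laboratory mouse 3, sets laboratory males against wild females. Sex and origin cannot be separated at all in such a fit. No mouse was treated or challenged, and all livers were frozen without formalin. FPKM counts the fragments of a gene, scaled to the length of its transcript and to the size of the library. The zFPKM of a gene is the distance of its log2 FPKM from the mode of all genes in the same mouse, in units of a fitted SD, so it places a gene within its own library.

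Laboratory mouse 3 and wild mouse 1 stood apart from their groups. Laboratory mouse 3 had a mode of log2 FPKM of 2.12, against 0.49 and 0.79 for the other laboratory mice. Wild mouse 1 had the highest mode of the 6, at 2.51, against 1.31 and 1.77 for the other wild mice. Read depth is unknown because no counts were used. The liver label was checked with 12 hepatocyte markers, of which 10 could be tested, and their summed FPKM ranged from 18826 to 22685 in laboratory and from 15989 to 18754 in wild mice. Adipocyte markers, checked because Saa3 is also made in fat, summed to at most 1.11 FPKM in any mouse, and 3 of the 6 were listed at 0 in all mice. In bulk liver, fewer cells of a type and less RNA per cell cannot be told apart.

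Of the 10 members, 6 passed the test between laboratory and wild mice (limma on zFPKM with Benjamini-Hochberg adjustment over 18632 genes, adjusted p under 0.05), against 14.5% of all tested genes. Crp, Apcs and Lcn2 were higher in wild mice (background 7.27%), and Orm1, Orm2 and Hp were higher in laboratory mice (background 7.18%). The groups did not overlap in zFPKM for Crp and Apcs, higher in wild mice (background 14.1%), or for Orm1 and Orm2, higher in laboratory mice (background 14.2%), which are 4 of 10 members against 28.3% of all tested genes. Thus the members did not move in 1 direction. Their median difference (laboratory minus wild) was -0.09 zFPKM, against 0.01 over all tested genes.

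The standard errors of this test came wholly from the trend of spread with level over all genes, because the estimated prior had infinite degrees of freedom. They were small for highly expressed genes, at 0.09 zFPKM for Hp against 0.44 zFPKM for the interleukin 6 gene Il6. The share over all tested genes is thus not a background at the level of the members. Of 10 tested hepatocyte markers, 6 were higher in wild mice and 3 in laboratory mice. The residual SD of Saa2, Saa1, Lcn2 and Saa3 was 5.84, 4.61, 4.37 and 2.97 times the SD that the fit used, while for the other members this ratio was 1.15 to 1.88. None of the 10 members passed when the variance trend was left out, where 794 genes in all did. With 3 mice against 3, an exact permutation test of a single gene cannot give p under 0.1.

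**Figure D1:**
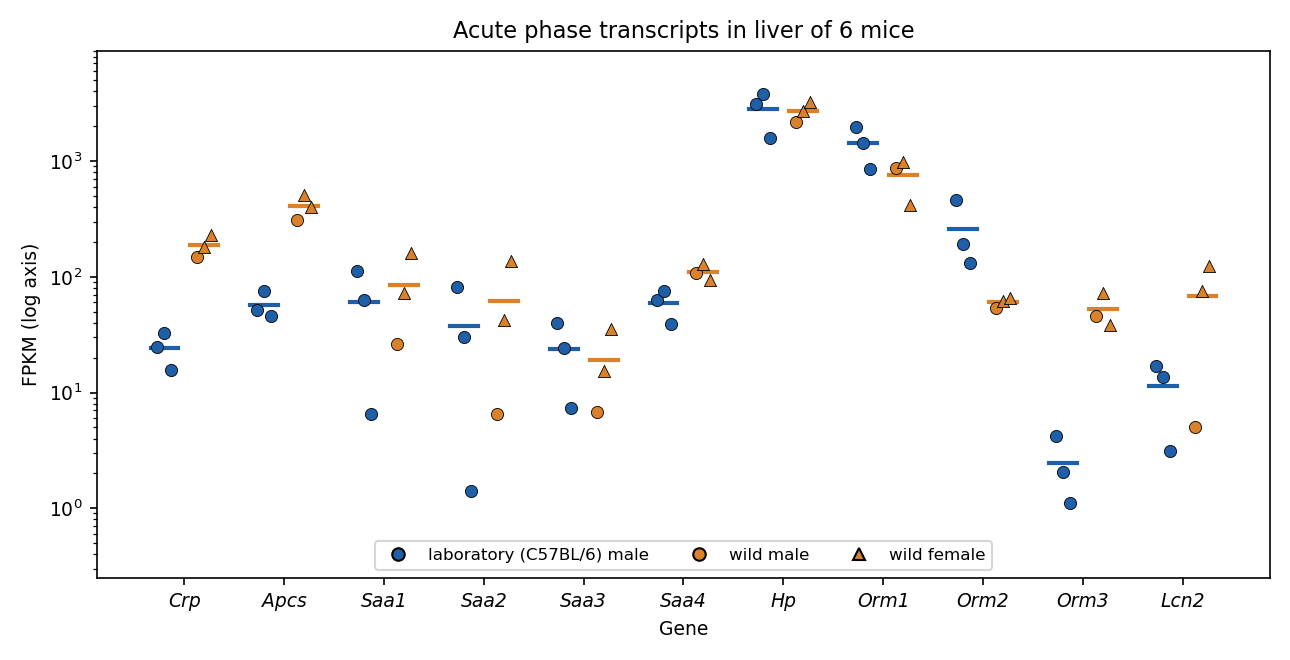
FPKM (log axis) of the 10 acute phase members and of Orm3 in each mouse, with circles for males, triangles for females and a bar at each group mean (n = 3). Crp, Apcs and Orm3 lay higher in every wild mouse than in any laboratory mouse and Orm2 lay lower, while Saa1, Saa2, Saa3 and Lcn2 ranged widely within both groups.

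Crp and Apcs, the pentraxins, had the largest ratios of mean FPKM among the members. Crp encodes C-reactive protein, a pentameric protein that binds phosphocholine on microbes and dying cells. Its FPKM was 24.8, 32.5 and 15.6 in laboratory mice 1 to 3 and 149, 182 and 229 in wild mice 1 to 3. Every wild mouse exceeded every laboratory mouse, and the wild male lay with the wild females. The means were 24.3 ± 8.48 and 187 ± 39.9 (SD, n = 3 each), a ratio of 7.69. The difference in zFPKM was -0.80 with an SE of 0.13 (limma, adjusted p = 9.98e-08). It was -0.69 without laboratory mouse 3 and wild mouse 1, which left laboratory males against wild females (limma, adjusted p = 0.000770).

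Apcs encodes serum amyloid P component, a pentraxin that binds amyloid fibrils and chromatin. Its FPKM was 51.2, 74.8 and 46.1 in laboratory and 309, 508 and 400.1 in wild mice. As for Crp, the groups did not overlap. The ratio of the means was 7.07, the difference in zFPKM was -0.73 with an SE of 0.12, and the adjusted p was 4.93e-08 by limma. Without laboratory mouse 3 and wild mouse 1 the difference was -0.70 (adjusted p = 0.000806). With sex as a covariate neither pentraxin passed, at -0.60 for Crp (adjusted p = 0.118) and -0.54 for Apcs (adjusted p = 0.0690).

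Crp (chr1:172698056-172699966, GRCm38) and Apcs (chr1:172893961-172895054) are neighbours on chromosome 1, transcribed from opposite strands and 193994 bases apart, with no protein-coding RefSeq gene starting between them. Their transcripts were 70.6% identical over aligned bases. Across the 6 mice the zFPKM of the pair had a Pearson r of 0.98, which is a description, since both follow the groups. The 250 bases before the start of each gene are given because both genes were higher in the same mice, from RefSeq on GRCm38.p6, 5′ to 3′ in the direction of transcription, at chr1:172697806-172698055 (plus strand) for Crp and chr1:172895055-172895304 (minus strand) for Apcs. Capitals mark matches, on either strand, to the letters TTGCNNAA (C/EBP), TTCNNNGAA (STAT3), GGG and CC with any 5 bases between them (NF-kB), or TATAAA.

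Crp: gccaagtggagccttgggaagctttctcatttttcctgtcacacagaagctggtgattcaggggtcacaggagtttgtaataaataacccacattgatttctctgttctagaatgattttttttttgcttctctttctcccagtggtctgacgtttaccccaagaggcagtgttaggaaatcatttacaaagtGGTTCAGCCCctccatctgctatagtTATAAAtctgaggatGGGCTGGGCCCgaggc
Apcs: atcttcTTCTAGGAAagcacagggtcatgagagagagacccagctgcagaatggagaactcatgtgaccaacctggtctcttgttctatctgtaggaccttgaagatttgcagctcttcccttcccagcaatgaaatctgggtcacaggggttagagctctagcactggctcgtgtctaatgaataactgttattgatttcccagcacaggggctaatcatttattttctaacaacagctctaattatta

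The Crp window held TATAAA at 31 to 26 bases before the start and 3 matches to the NF-kB letters, of which a pair overlapped. The Apcs window held 1 match, to the STAT3 letters, 244 to 236 bases before the start. Neither window held the C/EBP letters. Among 32851 RefSeq promoter windows of the same length, 9.56% held the C/EBP letters, 7.02% the STAT3 letters, 45.8% the NF-kB letters and 12.4% TATAAA, so the NF-kB pattern in particular is a common one.

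Serum amyloid A did not follow the groups. Saa1 and Saa2 encode the inducible forms, which replace other apolipoproteins on high-density lipoprotein in the acute phase. The FPKM of Saa1 (chr7:46740497-46743181) was 111, 63.4 and 6.53 in laboratory and 26.3, 71.9 and 159 in wild mice. Laboratory mouse 3 was the lowest of all and wild mouse 3 the highest, and the groups overlapped. The difference was -0.11 zFPKM with an SE of 0.14 (limma, adjusted p = 0.686).

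Saa2 (chr7:46751833-46754314) varied more than any other member. Its FPKM was 81.7, 30.2 and 1.42 in laboratory and 6.48, 42.7 and 138 in wild mice, a 97.1-fold range over the 6 mice. The order of the mice was the same as for Saa1, with laboratory mouse 3 and wild mouse 1 lowest. Cufflinks' bounds for Saa2 were 0.483 to 2.35 FPKM in laboratory mouse 3 and 129 to 146 FPKM in wild mouse 3, so the range was far wider than these bounds. The difference between groups was -0.21 zFPKM with an SE of 0.16 (limma, adjusted p = 0.437). Without laboratory mouse 3 and wild mouse 1 the sign of the difference turned for both genes, to 0.13 zFPKM for Saa1 and 0.036 zFPKM for Saa2. Saa2 passed only when laboratory mouse 1 was left out (-0.72, adjusted p = 0.00985).

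Saa1 and Saa2 are close copies, so reads could have been shared out between them by the counting. Their transcripts were 94.4% identical (572 of 606 aligned bases), although no run of 100 bases, the read length, was common to both. The first 120 bases of each coding sequence, from the GRCm38 genome and GENCODE annotation, show how little separates them, with capitals at the 5 positions that differ.

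Saa1: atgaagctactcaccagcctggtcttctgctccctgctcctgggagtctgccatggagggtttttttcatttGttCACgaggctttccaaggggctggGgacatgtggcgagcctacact
Saa2: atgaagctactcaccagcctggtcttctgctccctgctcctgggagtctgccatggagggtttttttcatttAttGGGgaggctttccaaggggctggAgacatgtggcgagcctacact

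The summed FPKM of Saa1 and Saa2 does not depend on how reads were split. It was 193, 93.6 and 7.95 in laboratory and 32.8, 115 and 297 in wild mice. The groups overlapped, with laboratory mouse 3 lowest and wild mouse 3 highest. The mean log2 FPKM of the sum differed by -0.99 (two-sided exact permutation test, p = 0.6). Saa2 made up 42.3%, 32.3% and 17.8% of the sum in laboratory and 19.8%, 37.2% and 46.4% in wild mice. The share of Saa2 was thus lowest in the mice with the least of both transcripts, in either group.

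Saa3 (chr7:46711998-46719615) encodes a serum amyloid A that macrophages and fat cells also make. Its FPKM was 39.8, 24.0 and 7.28 in laboratory and 6.81, 15.4 and 35.3 in wild mice. The lowest mouse of each group was again laboratory mouse 3 or wild mouse 1. The difference of 0.33 zFPKM (SE 0.17) did not pass (limma, adjusted p = 0.190), but without laboratory mouse 3 it was 0.70 and did (adjusted p = 0.00422).

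Saa4 (chr7:46727992-46732603) encodes the constitutive serum amyloid A of high-density lipoprotein, which changes little in inflammation. Its FPKM was 63.6, 76.0 and 39.4 in laboratory and 109, 129 and 93.1 in wild mice, so that it spanned 3.27-fold over all mice. In FPKM the groups did not overlap and the ratio of the means was 1.85. In zFPKM they overlapped, and the difference was -0.08 with an SE of 0.13 (limma, adjusted p = 0.763). On the log2(FPKM + 0.1) scale the difference was -0.93 and passed (adjusted p = 0.0215), but there the median of all tested genes was itself at -0.47.

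**Figure D2:**
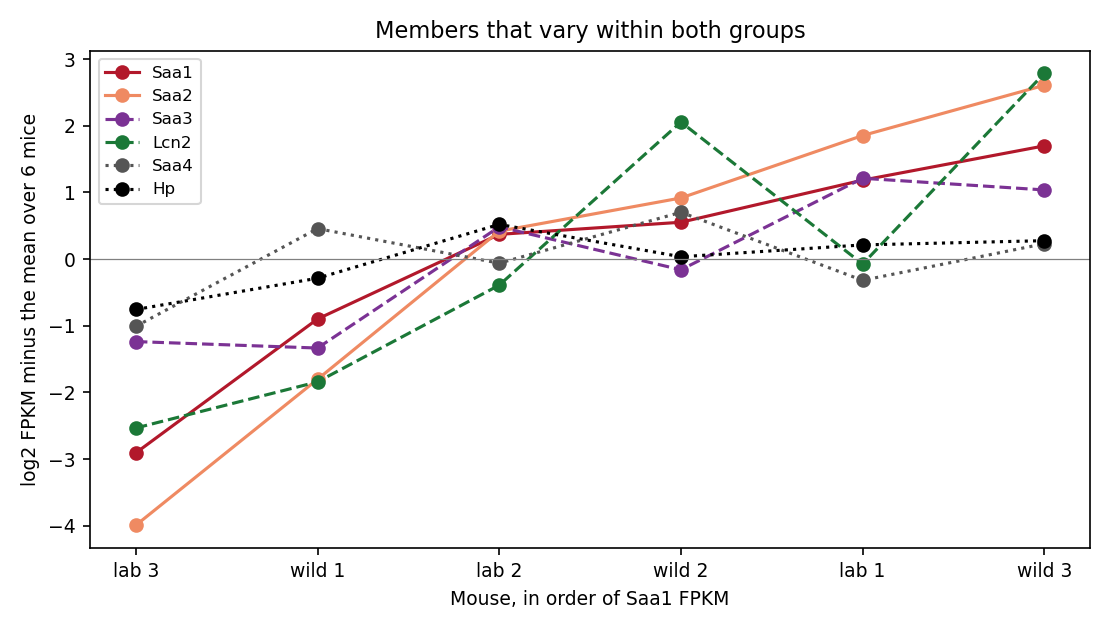
log2 FPKM of 6 members less the mean of that gene over the 6 mice, with mice ordered by the FPKM of Saa1. Saa1, Saa2, Saa3 and Lcn2 fell to their lowest values in laboratory mouse 3 and wild mouse 1, whereas Hp and Saa4 stayed within a narrow band.

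Lipocalin 2 varied with the inducible serum amyloid A genes. Lcn2 (chr2:32384637-32387739) encodes a secreted protein that binds bacterial siderophores and so withholds iron. Its FPKM was 17.1, 13.7 and 3.10 in laboratory and 5.01, 74.7 and 124 in wild mice. The high values belonged to the wild females, while the wild male lay within the range of the laboratory males. The difference was -0.45 zFPKM (SE 0.17), and it passed narrowly (limma, adjusted p = 0.0453). The SDs of the mice themselves were 0.73 zFPKM in laboratory and 1.02 zFPKM in wild mice. The call was lost without laboratory mouse 3 (-0.03), wild mouse 2 (-0.22) or wild mouse 3 (-0.10). A robust form of the same fit, added after the data were seen, left the call out (adjusted p = 0.781). With sex as a covariate, and so against wild mouse 1 alone, the sign turned to 0.72. Without laboratory mouse 3 and wild mouse 1, Lcn2 passed at -0.62 (limma, adjusted p = 0.00446), but the wild mice left were then the females alone.

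Markers of cells that also carry lipocalin 2 were read beside it. Summed neutrophil markers ranged from 8.98 to 15.1 FPKM in laboratory and from 2.38 to 3.68 FPKM in wild mice, and S100a8 and S100a9 passed the test in that direction, opposite to Lcn2. Elane, a neutrophil granule protease, was listed at 0 in 4 of the 6 mice and at 0.0486 and 0.0563 FPKM in wild mice 2 and 3. Camp and Ltf, untested like Elane, went the other way. Camp was at 0.122 and 0.264 FPKM and Ltf at 0.0555 and 0.0201 FPKM in laboratory mice 2 and 3, and both were at 0 in every wild mouse. The median difference of the 6 tested neutrophil markers was 0.84 zFPKM, toward laboratory mice. Summed Kupffer cell and macrophage markers were 54.6, 47.3 and 42.5 FPKM in laboratory and 25.8, 105 and 259 FPKM in wild mice. Of the 9 macrophage markers, Lyz2 (lysozyme) alone passed, higher in wild mice by a ratio of 11.8, although the groups overlapped in zFPKM. Lyz2 was 12.0, 51.1 and 123 FPKM in wild mice 1 to 3, a large part of these sums. The median difference of the 9 markers was 0.20 zFPKM, toward laboratory mice. The macrophage sum was lowest in wild mouse 1 and highest in wild mouse 3, the same order within the wild group as Saa1, Saa2, Saa3 and Lcn2. The part of this sum in those results was not tested.

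The window before Lcn2 (RefSeq, chr2:32387740-32387989, minus strand) and that before Saa2 (chr7:46751583-46751832, plus strand) are shown because the pair varied together. Their zFPKM had a Pearson r of 0.92 over 6 mice and of 0.93 for deviations from the group means, both descriptions. The motif letters are in capitals as before.

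Lcn2: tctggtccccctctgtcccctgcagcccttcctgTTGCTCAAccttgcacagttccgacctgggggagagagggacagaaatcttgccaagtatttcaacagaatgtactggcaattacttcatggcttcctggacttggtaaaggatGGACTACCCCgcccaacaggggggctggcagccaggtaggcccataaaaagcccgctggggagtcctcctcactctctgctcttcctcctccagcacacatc
Saa2: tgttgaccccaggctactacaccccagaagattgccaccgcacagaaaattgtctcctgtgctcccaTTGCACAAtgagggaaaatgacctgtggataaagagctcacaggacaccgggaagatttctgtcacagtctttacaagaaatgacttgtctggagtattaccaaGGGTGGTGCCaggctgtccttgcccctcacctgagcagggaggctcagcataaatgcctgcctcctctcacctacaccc

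Both windows held the C/EBP letters, at 216 to 209 bases before the start of Lcn2 and 183 to 176 bases before that of Saa2, and both held 1 match to the NF-kB letters. Among the 8 members with an entry in the promoter table, 6 had a match to the C/EBP letters (Saa1, Saa2, Saa3, Saa4, Orm2 and Lcn2), against 9.56% of all windows. The serum amyloid A genes among them are neighbouring copies on chromosome 7, so their windows are not independent. Saa1 and Saa2 carried the same C/EBP match. For Saa1 and Saa3 the RefSeq start used for the window differed from the gene coordinates given above. Hp and Orm1 had no entry. These matches are letters in a window and carry no measurement of binding.

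Orm1 and Orm2 were higher in laboratory mice, opposite to the pentraxins. They encode forms of alpha-1-acid glycoprotein, an abundant plasma protein that carries basic drugs and dampens immune cells. The FPKM of Orm2 (chr4:63362449-63365877) was 458, 193 and 133 in laboratory and 53.9, 61.5 and 65.2 in wild mice. All 3 wild mice lay below all 3 laboratory mice and close to each other. The ratio of the laboratory to the wild mean was 4.34, and the difference was 0.90 zFPKM (SE 0.12, limma adjusted p = 1.30e-11). It was 0.98 without laboratory mouse 3 and wild mouse 1 (adjusted p = 0.00340) and 1.09 with sex as a covariate, which rests on wild mouse 1.

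Orm1 (chr4:63344556-63348163) was the most abundant member after Hp. Its FPKM was 1981, 1435 and 859 in laboratory and 874, 984 and 421 in wild mice. The FPKM of laboratory mouse 3 thus lay inside the range of the wild mice, although the groups did not overlap in zFPKM. The ratio of the laboratory to the wild mean was 1.88 and the difference 0.57 zFPKM (SE 0.10, limma adjusted p = 2.76e-07). Without laboratory mouse 3 and wild mouse 1 the difference was 0.69 (adjusted p = 0.00867), and with sex as a covariate it was 0.49 and did not pass (adjusted p = 0.0764). On the log2(FPKM + 0.1) scale it did not pass either (0.92, adjusted p = 0.111).

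Orm3 is no member but lies between Orm1 and Orm2 on chromosome 4 (chr4:63356069-63359511), and it moved the other way. Its FPKM was 4.23, 2.04 and 1.12 in laboratory and 46.0, 72.1 and 38.5 in wild mice. The groups were far apart, with a ratio of 21.2 and a difference of -1.36 zFPKM (SE 0.18, limma adjusted p = 2.01e-11). With sex as a covariate it was -1.18 and did not pass (adjusted p = 0.0687). Its share of the summed FPKM of the 3 orosomucoids ranged from 0.112% to 0.173% in laboratory and from 4.73% to 7.34% in wild mice. The share of Orm2 was 18.7%, 11.8% and 13.4% in laboratory and 5.54%, 5.51% and 12.4% in wild mice, so wild mouse 3 came within the laboratory range for Orm2 by share, though not by level.

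The orosomucoid genes are also close copies, which bears on how reads were assigned. Their transcripts were 91.0% identical between Orm1 and Orm2, 86.5% between Orm1 and Orm3 and 88.5% between Orm2 and Orm3. Of the 676 windows of 100 bases in Orm1, 47 (6.95%) also occurred in Orm2, and no window of Orm3 occurred in any other member. The reads of wild mice were counted on the reference genome, and their own alleles were not analysed here. The first 66 bases of the coding sequences are given, with capitals at the 13 positions where the 3 genes are not all alike.

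Orm1: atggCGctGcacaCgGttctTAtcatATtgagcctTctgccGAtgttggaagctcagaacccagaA
Orm2: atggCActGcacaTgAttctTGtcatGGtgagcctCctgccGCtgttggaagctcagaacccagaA
Orm3: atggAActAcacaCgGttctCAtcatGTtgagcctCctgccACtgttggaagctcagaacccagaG

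The summed FPKM of the 3 genes was 2444, 1630 and 993 in laboratory and 974, 1117 and 524 in wild mice. The groups overlapped by laboratory mouse 3 alone. The mean log2 FPKM of the sum differed by 0.93 (two-sided exact permutation test, p = 0.2).

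**Figure D3:**
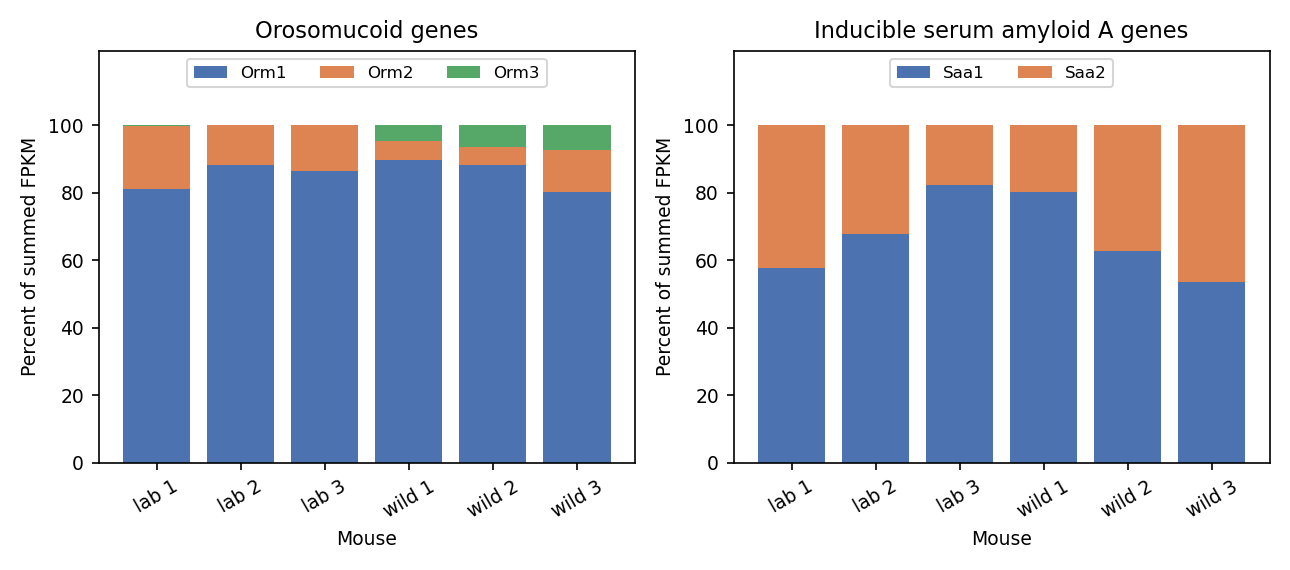
Percent of the summed FPKM taken by each gene in each mouse, for the orosomucoids (left) and for Saa1 and Saa2 (right). Orm3 took 4.73% to 7.34% in wild mice and under 0.2% in laboratory mice, while the share of Saa2 ran from 17.8% to 46.4% and overlapped between the groups.

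Haptoglobin binds free haemoglobin and was the most abundant and least variable member. The FPKM of Hp (chr8:109575128-109579172) was 3089, 3823 and 1578 in laboratory and 2184, 2731 and 3228 in wild mice. The groups overlapped on both scales, and the ratio of the wild to the laboratory mean was 0.959. The difference of 0.25 zFPKM (SE 0.09) passed the test (limma, adjusted p = 0.0431), but the same difference in log2 FPKM was -0.016. The call for Hp therefore belonged to the zFPKM scale, in which each mouse has its own mode and SD. It was also lost without laboratory mouse 1, laboratory mouse 2, wild mouse 1 or wild mouse 2 (adjusted p = 0.148 to 0.213).

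The wild male gave a comparison among males only, with 1 wild mouse and no test of its own. The differences with sex as a covariate rest on this same comparison. For Crp, Apcs, Saa4, Orm2 and Orm3, wild mouse 1 lay outside the range of the 3 laboratory males in FPKM, on the side of the wild females. For Saa1, Saa2, Lcn2, Hp and Orm1 it lay inside that range, and for Saa3 it lay just below it, at 6.81 against 7.28 FPKM.

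**Figure D4:**
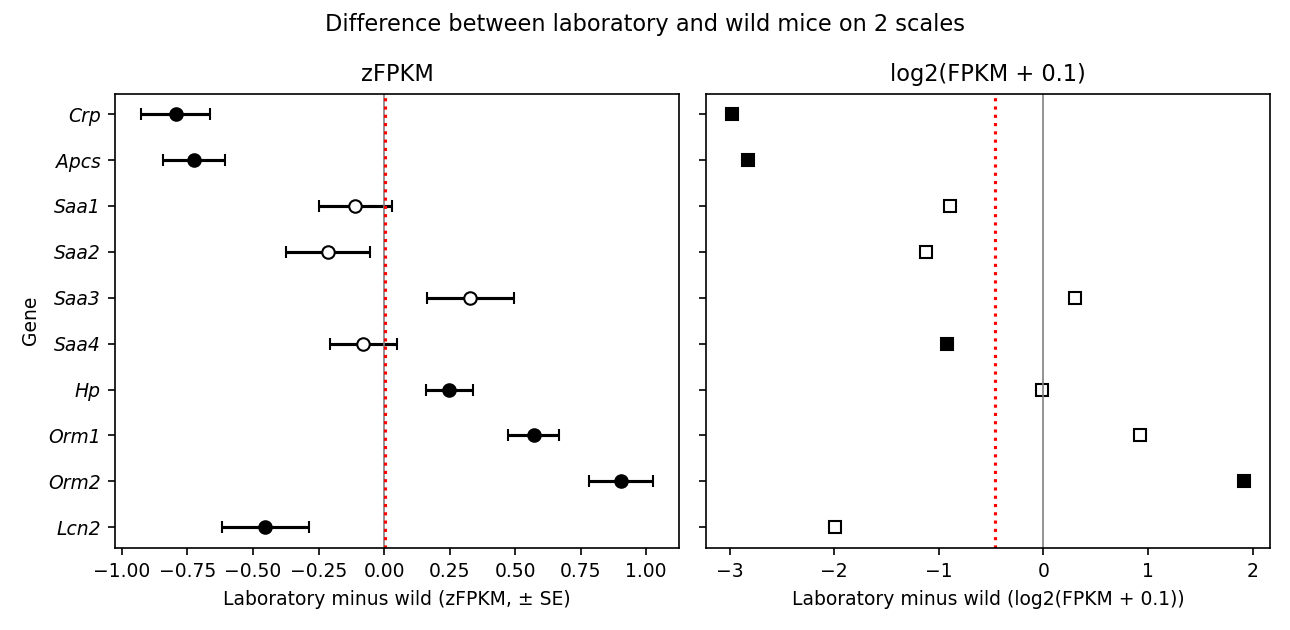
Difference between laboratory and wild mice (laboratory minus wild) for each member in zFPKM with its SE (left) and in log2(FPKM + 0.1) (right), filled where the adjusted p was under 0.05, with dotted lines at the median of all tested genes. Crp, Apcs and Orm2 passed on both scales, Orm1, Hp and Lcn2 on the left scale alone, and Saa4 on the right scale alone.

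Other genes of the acute phase also moved in both directions. Of 20 further positive acute phase genes, all tested, 10 were higher in wild mice, 2 were higher in laboratory mice and 8 did not pass, with a median difference of -0.34 zFPKM. Over all tested genes 7.27% were higher in wild and 7.18% in laboratory mice. Besides Orm3, the genes higher in wild mice were Il1rn, Steap4, Fga, Fgg, Lbp, Itih3, Itih4, Serpina3n and C3. Fga, the alpha chain of fibrinogen, averaged 103 FPKM in laboratory and 1351 FPKM in wild mice, a ratio of 13.1, and Fgg, the gamma chain, had a ratio of 4.42. Fgb, the beta chain, did not pass (-0.01 zFPKM, limma adjusted p = 0.966), with means of 1372 and 2324 FPKM.

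Il1rn, the antagonist of the interleukin 1 receptor, had the largest difference toward wild mice in this list, at -1.40 zFPKM (limma, adjusted p = 0.0159), from a level of 0.0213 to 0.0853 FPKM in laboratory mice. This call was lost without laboratory mouse 1, laboratory mouse 3, wild mouse 2 or wild mouse 3 (adjusted p = 0.0600 to 0.234), and with sex as a covariate (-0.50, adjusted p = 0.604). The hepcidins, peptide hormones that block iron export from cells, were the exceptions. Hamp2 was 340.2, 493 and 338 FPKM in laboratory mice against 27.6, 15.6 and 8.12 FPKM in wild mice. The ratio of the laboratory to the wild mean was 22.8 and the difference 1.86 zFPKM (limma, adjusted p = 8.46e-45). Whether reads were shared between Hamp and Hamp2 was not checked. Hamp had a ratio of 2.21 and a difference of 0.68 zFPKM (adjusted p = 3.76e-13), but this call was lost in the robust fit (adjusted p = 0.242) and with sex as a covariate (0.82, adjusted p = 0.0525).

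Of 10 negative acute phase genes, 9 could be tested, since the estimate for albumin failed in some mice. Among the 9, 3 were higher in wild mice and 3 in laboratory mice, with a median difference of -0.13 zFPKM. Trf (transferrin) and Serpina6 (the corticosteroid-binding globulin) were higher in wild mice by ratios of 5.47 and 5.56, as was Pon1. With sex as a covariate, and so against wild mouse 1 alone, the differences were -0.54 zFPKM for Trf and -0.29 zFPKM for Serpina6. Apoa1 and Apoa2, the main proteins of high-density lipoprotein, were higher in laboratory mice by ratios of 2.25 and 1.79, as was Ttr. Both apolipoproteins turned under quantile normalization, to -0.18 and -0.34 zFPKM, and Apoa2 did not pass in the robust fit (adjusted p = 0.154) or with sex as a covariate (0.34, adjusted p = 0.182).

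**Figure D5:**
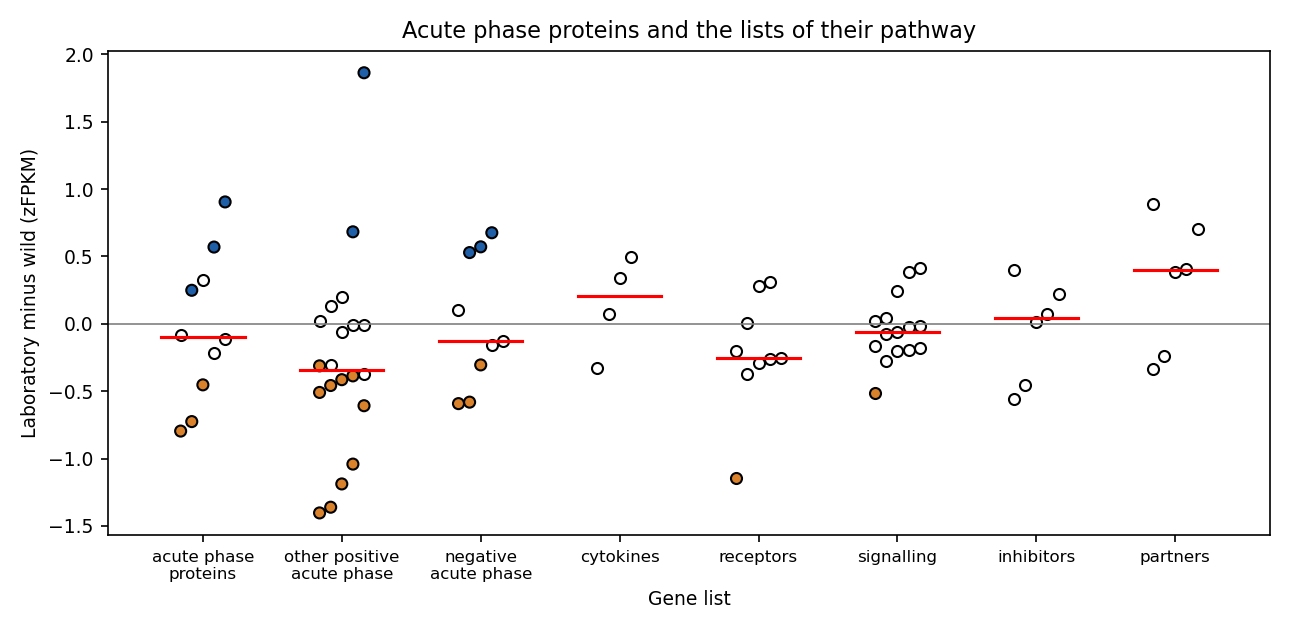
Difference in zFPKM (laboratory minus wild) of each tested gene of the acute phase lists, with genes past an adjusted p of 0.05 filled in blue where higher in laboratory mice and in orange where higher in wild mice, and a red line at each list's median. Calls lay in both directions among the acute phase genes, while 1 receptor and 1 signalling gene passed and no cytokine, inhibitor or partner gene did.

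Upstream, few genes passed. Among 8 inducing cytokines, 4 were tested and none passed, with Il1a, the highest of them by mean zFPKM, at 0.256 to 1.47 FPKM and Il1b at 0.326 to 3.61 FPKM, while Osm and Il22 were listed at 0 in all 6 mice. Of 10 receptors, 9 were tested and only Il6ra passed. This alpha chain of the interleukin 6 receptor was 0.666, 0.622 and 1.12 FPKM in laboratory mice and 5.55, 19.8 and 19.9 FPKM in wild mice. The lowest wild value was that of the male. The ratio of the means was 18.8 and the difference -1.15 zFPKM (limma, adjusted p = 7.29e-05), and with sex as a covariate it was -0.52 and did not pass (adjusted p = 0.265). Its signalling partner Il6st did not pass (-0.26 zFPKM, adjusted p = 0.409).

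Among 15 kinases, adaptors and transcription factors, only Stat3 passed. It was 5.93, 6.46 and 7.23 FPKM in laboratory mice and averaged 30.6 ± 6.22 FPKM in wild mice, a ratio of 4.69 and a difference of -0.51 zFPKM (limma, adjusted p = 0.0243). The call was lost without laboratory mouse 1, laboratory mouse 2, wild mouse 2 or wild mouse 3 (adjusted p = 0.0536 to 0.278), and with sex as a covariate it was -0.25 (adjusted p = 0.504). None of the 6 feedback inhibitors passed, and Nfkbia, the one with the highest mean level, differed by 0.02 zFPKM (limma, adjusted p = 0.966). None of the 6 receptors of the secreted proteins passed, and Scarb1, the receptor of high-density lipoprotein and the one with the highest mean level, differed by -0.33 zFPKM (limma, adjusted p = 0.0794). Scarb1 was 22.7 to 39.3 FPKM in laboratory and 95.6 to 102 FPKM in wild mice, and it passed in 4 of 19 alternative forms of the processing. Over these 4 lists and the cytokines, 2 genes passed of 40 tested, against 14.5% of all tested genes. Several had low levels and large SEs, so genes that did not pass cannot be called unchanged. Summed FPKM was higher in every wild mouse for the signalling genes (260 to 289 against 355 to 487), inhibitors (22.5 to 25.9 against 37.7 to 57.4), receptors and partners. It overlapped for the cytokines. On the log2(FPKM + 0.1) scale the median of all tested genes was also higher in wild mice.

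The genes most like the inducible members in pattern were found by the Pearson r of zFPKM over the 6 mice, among 5888 genes whose SD was at least 0.5. They were Runx1, Gm14548 and Soat1 for Lcn2, with r of 0.997 to 0.998. For Saa1 they were Smc1b, Pcolce2 and Zfp583, for Saa2 Kcnab2, Zfp763 and LOC115489100, and for Saa3 Hmga2-ps1, Ear-ps9 and Pou2af1, with r of 0.990 to 0.9935. These genes had low levels, Runx1 with means of 0.0358 and 0.123 FPKM in laboratory and wild mice. The highest value of any of them was 1.05 FPKM, for Gm14548 in wild mouse 3. With 6 mice and this many candidates such values describe likeness only.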

How the data were processed

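RNA-Seq of frozen liver (100 base single reads, stranded mRNA libraries) was analysed in 3 laboratory and 3 wild mice. The authors aligned reads with kalign to a masked mouse genome, calculated FPKM with the Tuxedo pipeline and transformed them with the R package zFPKM. The versions used for the RNA-Seq reads are not given in the sources used here, and the submitters' processing notes name GRCm38.p6 and Picard. The deposited FPKM values are relative to transcript length and to library size. The zFPKM column deposited beside them is a score, computed in each mouse from its own mode and SD. No counts were used, so depth is unknown and the count test of the study's methods was not run. Cufflinks' bounds, given for 5 mice, cover the estimate in a library and not the spread between mice.

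Among the 47256 unique gene names, 24 with a failed estimate had those values set to missing, as were 4 names at 0 in laboratory mouse 1, where failures are not marked. No member was affected. Genes with zFPKM above -3 in at least 3 mice were tested, after values under -3 had been raised to it, by limma 3.58.1 in R 4.3.3 (lmFit, eBayes with trend, Benjamini-Hochberg over all tested genes, adjusted p under 0.05). Groups came from the sample titles, and sex was tried as a covariate. For summed paralogs, an exact permutation test (two-sided) was used. The fit was also run on simulated data, with shifts larger than the zFPKM difference of any member, so that run does not bear on the members' calls. Differences are laboratory minus wild throughout.

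The members and lists were chosen with earlier results of these data known. All members were named, and, from each list, up to 2 passing genes with the largest difference in each direction, or the highest gene where none passed. Other genes were named after their values were seen, as the remaining passing genes of their list or as partners of a named gene. Sequences came from RefSeq (promoters, GRCm38.p6) and GENCODE on GRCm38, read with Python 3.11.15 and Biopython 1.88, and starts in the files, counted from 0, were raised by 1.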

Additional observations from a re-analysis of the deposited data

How the results depend on the processing

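The 19 alternatives left Crp past the threshold in 16, Apcs in 16, Orm2 in 17, Orm1 in 12, Lcn2 in 6 and Hp in 5, and Saa1 in none. The 7 other acute phase lists had 20 calls among 69 tested genes. Log2(FPKM + 1) and log2(FPKM + 0.1) called 8244 and 8597 genes, 83.2% and 82.3% of them higher in wild mice against 50.3% in zFPKM, with 37 of the other lists' genes on either scale, and the median gene at -0.20 and -0.47. Hp was then at -0.0157 on both scales and Nfkbia at -0.64 and -0.67. Quantile normalization called 7278 genes, 3 members and 30 genes of the other lists (Apoa1 -0.18, Apoa2 -0.34). A median of 0 in each mouse gave 5270 genes, 3 members and 14 genes of the other lists. Without a filter, 21 genes passed, 0 of them members and 0 in the other lists. Without the trend, 794 genes, 0 members and 2 genes of the other lists passed. With sex as a covariate, 1333 genes (18.1% higher in wild mice), 1 member (Orm2) and 6 genes of the other lists passed, with Saa1 at 0.50, Saa2 at 0.80, Saa4 at 0.026 and Lcn2 at 0.72. Without laboratory mouse 3 and wild mouse 1, 5580 genes and 32 of the other lists passed, with Saa1 at 0.13, Saa2 at 0.036 and Saa4 at 0.039. Leaving out 1 mouse at a time gave 1338 (without wild mouse 3) to 3011 (without laboratory mouse 3) genes, -0.46 to 0.43 for Saa1, -0.72 to 0.54 for Saa2, -0.17 to 0.091 for Saa4, -0.12 to 0.14 for Nfkbia and -1.93 to 0.37 for summed Saa1 and Saa2, the positive values of serum amyloid A arising without laboratory mouse 3 and, for Saa1 and Saa2, also without wild mouse 3. The cause of these shifts was not tested.

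The length correction, the robust fit and the joint omission of laboratory mouse 3 and wild mouse 1 were chosen after seeing the data. Genes with transcripts under 1 kb had a median difference of 0.16 zFPKM and those over 3 kb -0.07, and removing this trend left Crp, Apcs, Orm1, Orm2 and Lcn2 past the threshold and ended the call of Hp (adjusted p = 0.108, limma). No paired analysis was possible because the mice were separate animals with no pairing between the groups. Depth is unknown, so low values such as those of the cytokines set no limit on expression.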

Other observations

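Genes of other liver functions moved beside the acute phase genes. Of the 10 tested hepatocyte markers, 6 were higher in wild mice and 3 in laboratory mice, against 14.5% of all tested genes in either direction. Cyp2e1, a cytochrome P450 that oxidises ethanol, was higher in wild mice by a ratio of 10.1, as were Tat and Tdo2, enzymes of tyrosine and tryptophan breakdown, by ratios of 6.93 and 5.43. Serpina1c, an alpha-1-antitrypsin, was higher in laboratory mice by a ratio of 3.11 and Apoc3, an apolipoprotein that slows lipoprotein clearance, by a ratio of 2.23. The metallothioneins, metal-binding proteins that also rise in the acute phase, did not pass and were led by a single mouse. Mt1 was 51.8, 80.0 and 19.7 FPKM in laboratory mice and 28.04 FPKM in wild mouse 1, but 290.6 FPKM in wild mouse 2, where Mt2 was also highest, at 249 FPKM.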
